A study of Homo sapiens with 12 samples.

Results

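Of 11963 genes measured in 22RV1 and LnCaP prostate cancer cells, 1290 moved the same way after nicotine in every same-numbered pair of arrays of both lines. Members were chosen by taking, for each gene, the nicotine-treated minus the untreated log2 value of arrays with the same replicate number, and keeping the genes whose 6 differences (3 in each line) had the same sign. The members were 577 genes with 6 positive and 713 with 6 negative differences (4.82% and 5.96% of those measured). Each gene was read from its probe set with the highest mean.

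The study profiled cells on Affymetrix arrays in 4 groups of 3 replicates: 22RV1 untreated, 22RV1 with nicotine, LnCaP untreated and LnCaP with nicotine. Nicotine was given as 100 µM nicotine tartrate for 24 h, and the labels name no vehicle for the untreated cells. Both are established cell lines from human prostate cancers that carry the androgen receptor, so each stands for the tumour of a single origin, grown without the other cells of a tumour. The labels do not say whether replicates were separate cultures, so the p-values below cover the spread between arrays alone, and that spread may be technical.

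Nicotine is the agonist that gave the nicotinic acetylcholine receptors their name; these are ligand-gated channels built from several subunits. A dividing cell makes the proteins of DNA replication as it enters S phase and those of the spindle, the kinetochore and the mitotic kinases later, in G2 and M phase, and the amounts of the corresponding transcripts in a culture follow how many cells are in those phases. In prostate cells the androgen receptor raises the transcripts of secreted proteases such as the kallikreins and lowers those of another gene set.

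The lowest correlation within a group was 0.991, and 22RV1 and LnCaP arrays correlated at 0.923 or less. The arrays numbered 3 held 48.0% of the residual sum of squares around the group means. Luminal markers were present in both lines: KLK2 lay between 7.94 and 10.74 and KRT8 between 10.29 and 10.91 on the log2 scale. Of the markers of other cell types, 0 of 6 for fibroblasts and 0 of 5 for leukocytes passed the test for the average effect described next, and 1 of 4 for endothelium did, VWF at 0.48 (adjusted p = 0.0363). The summed log2 level of the fibroblast list was 34.37 to 35.57 in untreated and 34.52 to 35.43 in treated 22RV1 arrays, and 31.91 to 32.81 and 31.84 to 32.77 in LnCaP. For leukocytes it was 22.12 to 23.40 and 22.65 to 22.92 in 22RV1 and 23.10 to 23.39 and 23.13 to 23.67 in LnCaP. For endothelium it was 16.23 to 17.28 and 16.34 to 17.16 in 22RV1, and 19.98 to 20.26 and 20.64 to 20.95 in LnCaP, where VWF itself was higher on every treated array. Whether any of these bears on the results was not tested.

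Genes of mitosis made up the largest listed group among the falls shared by both lines, and the rises included some androgen-repressed targets and single genes of CLK kinases, histones and cathepsins. The nicotine effect averaged over both lines was tested for each gene with limma, with same-numbered arrays of a line forming a block, and a gene was called at a Benjamini-Hochberg adjusted p under 0.05. That average was called for 396 genes, 3.31% of those measured, of which 153 were higher (1.28%) and 243 lower (2.03%). Of the 1290 members, 282 were called, 122 higher and 160 lower, which is 2.36%, 1.02% and 1.34% of all genes. The signs and the average use the same differences, so the share of members called is a description and supports nothing. The called rises had a median log2 difference of 0.33 (0.28 in 22RV1 and 0.40 in LnCaP), and the called falls one of -0.39 (-0.25 and -0.51), against -0.0031 over all genes. The changes were small: 18 of the 282 exceeded 1.5-fold on average.

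The calls rest on few arrays. Without the block 45 genes were called, all of them among the 396, and 38 of these were members. Leaving out the 4 arrays numbered 3 left 0 calls (1587 genes at an unadjusted p under 0.05), and leaving out a single same-numbered pair left 46 to 186. In 22RV1 alone limma called 0 genes (0.0%), with 1351 at an unadjusted p under 0.05, and in LnCaP alone 645 (5.39%). The 22RV1 side of the shared effect is thus given in this fit by sign and size alone, and for members the rule fixed the sign. Over all genes, pair differences of 22RV1 and LnCaP correlated at 0.0017 to 0.24. Within 22RV1 they correlated at 0.18 to 0.28 and within LnCaP at 0.37 to 0.48. With a trended robust prior 37 genes were called in 22RV1 alone, and 2 without the arrays numbered 2 of that line. The difference between the effects of the lines was called for 19 genes (0.159%) and for 0 of the 1290 members, of which 146 had an unadjusted p under 0.05 for it (11.3%, against 13.2% of all genes). Having the same sign in both lines itself limits how far the effects can differ. The LnCaP effect was the larger in size for 150 of the 160 called falls and for 84 of the 122 called rises, against 830 of the 1290 members (64.3%) and 56.0% of all genes.

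**Figure D1:**
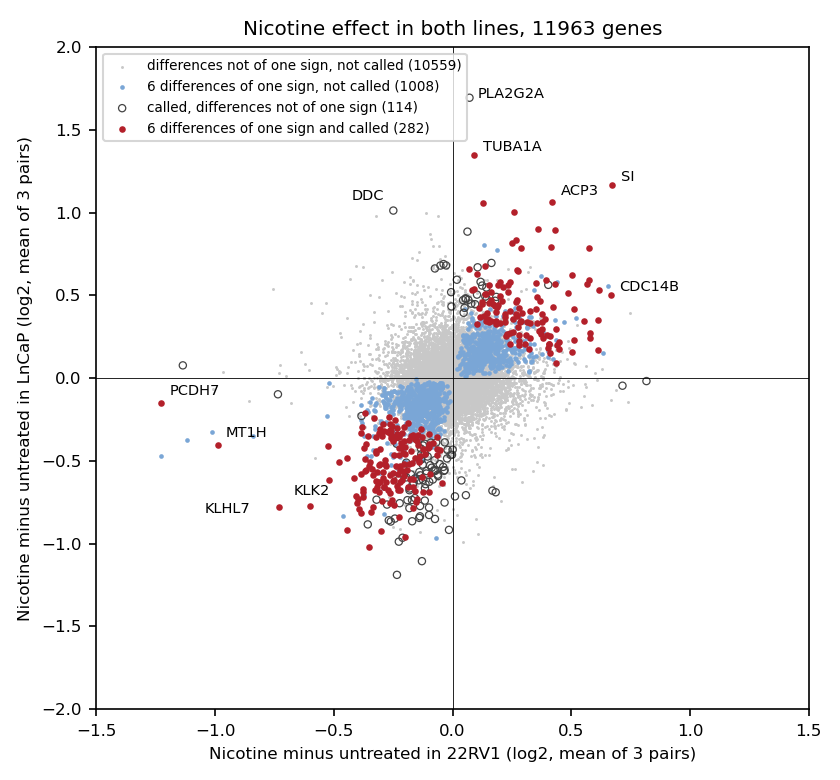
The plot sets the log2 nicotine effect in LnCaP (vertical) against that in 22RV1 (horizontal), each the mean of 3 pairs, for 11963 genes, with the 282 called members in red and the 114 called genes outside the rule as open circles. The called members lie in the upper right and lower left, and most falls lie farther from 0 in LnCaP than in 22RV1.

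Among called members, 43 had all 6 differences of at least 0.2 (17 rises and 26 falls). The 12 rises with the largest smallest difference were CDC14B, CTSK, H3C6, CERK, PLEKHB1, SHC2, CLK1, UGT2B17, SI, H2AC6, ATXN1 and RLN2. The 12 such falls were KLK2, DLGAP5, CDKN3, KLHL7, CEP55, HMMR, CCNA2, ECT2, CCNB2, REXO5, OIP5 and DEPDC1. By the size of the average, the largest called rises were SI (0.92), ACP3 (0.74), TUBA1A (0.72), RLN2 (0.68) and MXRA7 (0.66). The largest called falls were KLHL7 (-0.75), MT1H (-0.70), PCDH7 (-0.69), E2F8 (-0.69) and KLK2 (-0.69). SI, at 3.02 to 4.14 in untreated 22RV1 and 4.31 to 4.61 in untreated LnCaP arrays, and PCDH7, at 3.74 to 4.06 on all LnCaP arrays, were read at low levels (array medians were 6.61 to 6.71). Of the 12 rises with the largest smallest difference, CDC14B, CTSK, H3C6, CERK, UGT2B17 and SI lay below those medians on every 22RV1 array. No detection calls were used here, so whether these levels were above background is not known, and the sizes and signs read there are uncertain.

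**Figure D2:**
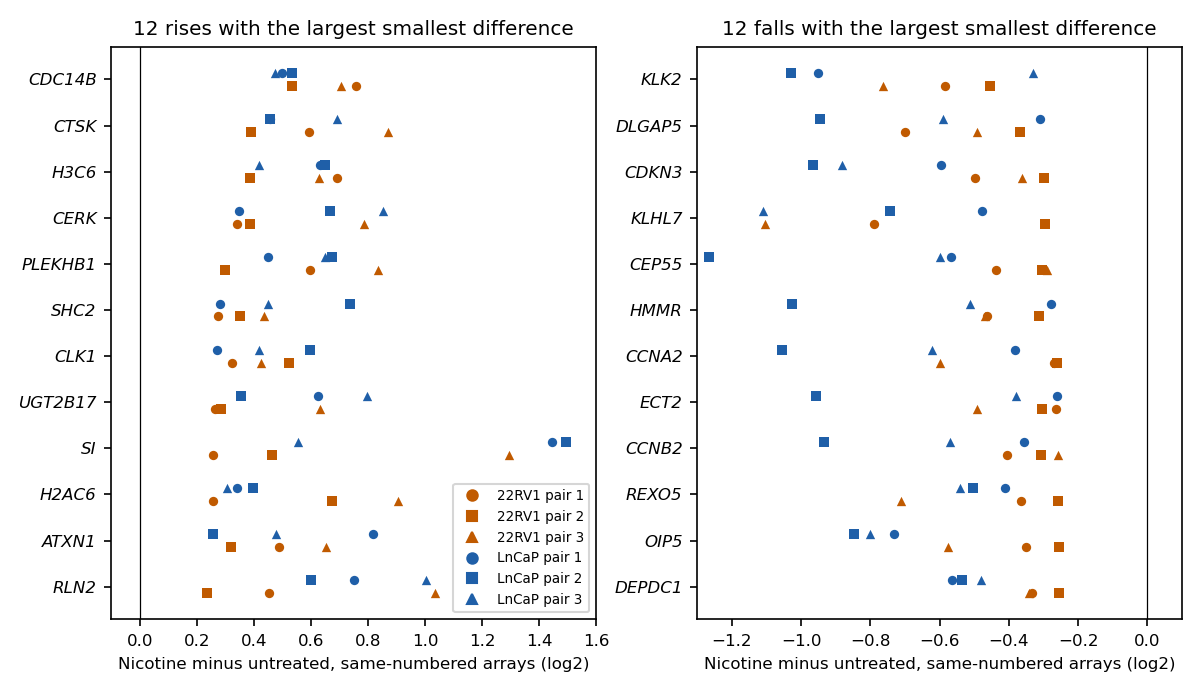
Each row is a gene and each mark the log2 difference between the treated and the untreated array of the same number, in orange for 22RV1 and blue for LnCaP, for the 12 rises and the 12 falls named by their smallest difference. No mark crosses 0. Among the falls the 3 marks of LnCaP lie wholly to the left of those of 22RV1 for CDKN3, CEP55, OIP5 and DEPDC1, and the ranges of the lines overlap for the rest.

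CDC14B, a phosphatase that acts on proteins phosphorylated by cyclin-dependent kinases, was the called rise with the largest smallest difference (0.47). In 22RV1 it was at 5.69, 5.55 and 5.49 on untreated arrays 1, 2 and 3 and at 6.45, 6.08 and 6.20 with nicotine, and in LnCaP at 6.37, 6.48 and 6.95 and then at 6.87, 7.02 and 7.42. The groups were apart in 22RV1, whereas in LnCaP the untreated array numbered 3 was above the lowest treated array. CDC14B rose by 0.58 ± 0.05 (SE, n = 6 pairs, adjusted p = 0.00870), and of its 4 other probe sets, 2 had 6 positive differences with averages of 0.26 each and the other averages were 0.13 and 0.017.

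CTSK encodes cathepsin K, a lysosomal cysteine protease best known from bone resorption. Its untreated levels were 5.36, 5.83 and 5.50 in 22RV1 and 7.11, 7.09 and 7.16 in LnCaP, and its treated levels 5.95, 6.22 and 6.37 and then 7.56, 7.54 and 7.85. All treated arrays were above all untreated arrays of their line. CTSK rose by 0.58 ± 0.07 (adjusted p = 0.0108), and CTSF, another cysteine cathepsin, rose by 0.26 (adjusted p = 0.0406). Of 14 cathepsins 2 rose and 0 fell (1.28% and 2.03% of all genes), and the list median was -0.014.

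H3C6, a clustered gene of histone H3, was at 5.46, 5.50 and 5.44 in untreated 22RV1 arrays and at 6.15, 5.88 and 6.07 in treated ones. In LnCaP it was at 7.78, 7.75 and 7.71 and then at 8.41, 8.40 and 8.13. The groups did not overlap in either line, and the effect was 0.57 in each (average adjusted p = 0.00870). H2AC6, a histone H2A gene, rose by 0.48 (adjusted p = 0.0186) and H2AC15 by 0.26 (adjusted p = 0.0430), the latter with a difference of -0.14 in 22RV1 pair 1. Of 37 clustered histone genes, 3 rose and 0 fell (1.28% and 2.03% of all genes), and the median was 0.0041. By sign, 2 had 6 positive differences and 1 had 6 negative ones (4.82% and 5.96% of all genes). The latter was not called, but its groups were apart in both lines. Histone genes are near-identical copies, and their probe sets may share signal.

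**Figure D3:**
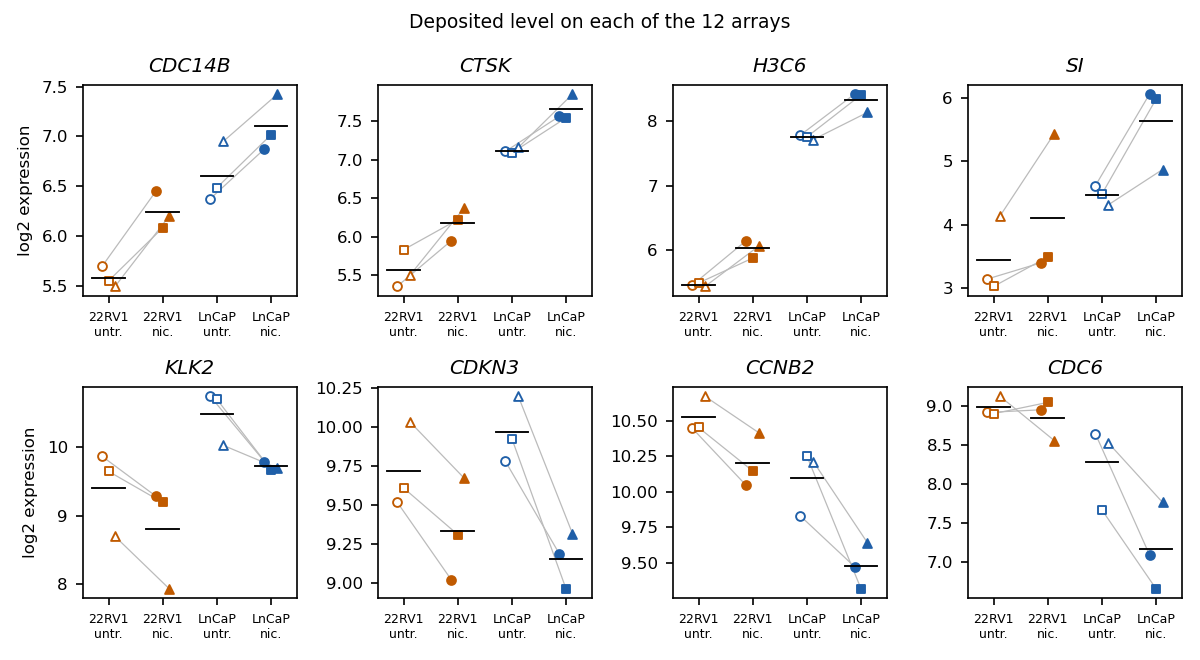
Deposited log2 levels are shown for 8 genes on each of the 12 arrays, with untreated arrays open, treated arrays filled, same-numbered arrays joined by a line and group means as bars. CTSK and H3C6 show no overlap between groups in either line, whereas CDC6 was higher with nicotine in 22RV1 pairs 1 and 2.

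Genes of the mitotic spindle were lower with nicotine in both lines. Of 24 measured kinesins and spindle proteins, 18 fell and 0 rose, 17 had 6 negative differences, and the list median was -0.43 (-0.25 in 22RV1 and -0.60 in LnCaP). Over all genes, 2.03% were called lower and 5.96% had 6 negative differences. DLGAP5, which stabilises the microtubules next to the chromosomes, was at 8.55, 8.54 and 8.90 in untreated 22RV1 arrays and at 7.85, 8.18 and 8.41 in treated ones. In LnCaP it was at 8.80, 9.28 and 9.20 and then at 8.49, 8.34 and 8.61. Treated arrays were below untreated ones without overlap in both lines, and DLGAP5 fell by 0.57 ± 0.08 (adjusted p = 0.0136). CEP55, which acts in the last step of cytokinesis, fell by 0.58 (adjusted p = 0.0154). HMMR, a microtubule-bound hyaluronan receptor, fell by 0.51 (adjusted p = 0.0224), and its other probe set by 0.56 on average with 6 negative differences. ECT2, the exchange factor that starts furrow ingression, fell by 0.44 (adjusted p = 0.0337). The motors KIF11 (-0.47), KIF23 (-0.44) and KIF2C (-0.44) and the spindle protein SPAG5 (-0.49) fell as well. The smallest of the 6 differences was -0.20 for KIF11 and only -0.0028 for SPAG5, in 22RV1 pair 2.

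Mitotic kinases and checkpoint proteins gave a similar picture: 13 of 17 fell, 0 rose, 11 had 6 negative differences and the median was -0.47 (-0.26 in 22RV1 and -0.67 in LnCaP). CDC20, the activator of the anaphase-promoting complex, fell by 0.56 (adjusted p = 0.0135). AURKB, the kinase of the chromosomal passenger complex, fell by 0.53 (adjusted p = 0.00870), the checkpoint ATPase gene TRIP13 by 0.51 (adjusted p = 0.0183) and the kinase gene PBK by 0.45 (adjusted p = 0.0135). In 22RV1 pair 2 the differences of these 4 genes were -0.21, -0.035, -0.066 and -0.17, the smallest in size of the 3 pairs of 22RV1 for each gene. AURKA (-0.43) and PLK1 (-0.40), chosen after their values were seen, also fell and had 6 negative differences.

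Of 28 kinetochore, centromere and condensin genes, 22 fell, 0 rose, 16 had 6 negative differences and the median was -0.42 (-0.19 and -0.58). OIP5, which helps to load the centromeric histone, fell by 0.59 ± 0.06 (adjusted p = 0.00870), with differences of -0.35, -0.26 and -0.58 in 22RV1 and of -0.73, -0.85 and -0.80 in LnCaP. Its treated arrays lay below the untreated ones in both lines. CENPN fell by 0.49, ZWILCH of the kinetochore by 0.48 and the centromeric histone chaperone gene HJURP by 0.42. BIRC5, the gene of survivin, fell by 0.52 (adjusted p = 0.0122; chosen after its values were seen).

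Cyclins and their partners fell in part: 12 of 27 genes were lower and 0 higher (2.03% and 1.28% of all genes). By sign, 13 had 6 negative differences and 1, the inhibitor gene CDKN1C (0.44, not called), had 6 positive ones. The median was -0.29. CCNB2, which encodes cyclin B2, was at 10.45, 10.45 and 10.67 in untreated 22RV1 arrays and at 10.04, 10.15 and 10.41 in treated ones. In LnCaP it was at 9.83, 10.25 and 10.21 and then at 9.47, 9.32 and 9.64. The groups did not overlap in either line, and CCNB2 fell by 0.47 ± 0.07 (adjusted p = 0.0154). CCNA2, the gene of cyclin A2, fell by 0.53 (adjusted p = 0.0191), and its other probe set had 6 negative differences with an average of -0.64. CDKN3, a phosphatase that acts on CDK2, was at 9.52, 9.61 and 10.03 and then at 9.02, 9.31 and 9.67 in 22RV1, where the groups overlapped. In LnCaP it went from 9.78, 9.93 and 10.20 to 9.18, 8.96 and 9.31 without overlap, and its average fell by 0.60 ± 0.06 (adjusted p = 0.00870). UBE2C, the ubiquitin-conjugating enzyme of the anaphase-promoting complex, fell by 0.45, CDC25C by 0.47 and CKS1B by 0.39. DEPDC1, a protein of mitotic cells that none of the lists holds, fell by 0.42 with groups apart in both lines.

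Over the 69 genes of the spindle, checkpoint and kinetochore lists together, 53 fell, 44 had 6 negative differences and 40 had both (2.03%, 5.96% and 1.34% of all genes). Treated and untreated groups were apart in both lines for 29. Of all genes, 1.84% were apart in both lines in the same direction, 0.568% higher and 1.27% lower. The list medians of the pairs were -0.25, -0.12 and -0.36 in 22RV1 and -0.50, -0.74 and -0.53 in LnCaP, so no pair went the other way. Without the arrays numbered 3, 46 of the 69 had 4 negative differences, against 9.79% of all genes, although no gene was called then.

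Promoters of mitotic genes often hold a CHR element (TTTGAA), which the DREAM and MuvB complexes bind, beside CCAAT boxes (CCAAT) bound by NF-Y, whereas S phase genes often hold E2F sites. RefSeq promoters (build GRCh38.p14, from 250 bases before to 50 after the gene's start) were matched to 9562 of the 11963 genes and to 236 of the 282 called members, and the words were searched on both strands. The CHR word was in 48 of 132 called falls (36.4%) and 12 of 104 called rises (11.5%), against 10.98% of the genes measured and 15.4% of the 27305 promoters in the table. Of genes called lower outside the rule 19 of 75 held it (25.3%), with both words in 9.33% and the CCAAT word in 42.7%. In the mitotic lists 24 of 33 called falls held the CHR word (72.7%), 8 of 13 called lower outside the rule (61.5%) and 37 of all 57 genes with a promoter (64.9%). The CHR word thus goes with the lists themselves. Both words together were in 26.5% of called falls and 4.65% of genes measured, and the CCAAT word alone in 56.8% of called falls, 23.1% of called rises, 37.3% of genes measured and 35.7% of the table. The words can overlap by chance and a match is a description of letters, not of binding. Promoters are shown for 4 of the 12 falls with the largest smallest difference, all with both words in the window printed, and the rest of the 12 are not shown. The stretches below run from 180 bases before to 30 after the start, with CHR and CCAAT words of either strand in capitals. They lie at chr14:55191556-55191765 on the minus strand for DLGAP5, and on the plus strand at chr10:93496432-93496641 for CEP55, chr5:163460452-163460661 for HMMR and chr15:59104966-59105175 for CCNB2.
DLGAP5: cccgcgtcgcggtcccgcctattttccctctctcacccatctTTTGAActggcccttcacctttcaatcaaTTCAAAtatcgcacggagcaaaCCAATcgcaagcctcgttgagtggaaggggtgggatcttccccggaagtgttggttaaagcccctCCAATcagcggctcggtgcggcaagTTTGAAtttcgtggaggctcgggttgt
CEP55: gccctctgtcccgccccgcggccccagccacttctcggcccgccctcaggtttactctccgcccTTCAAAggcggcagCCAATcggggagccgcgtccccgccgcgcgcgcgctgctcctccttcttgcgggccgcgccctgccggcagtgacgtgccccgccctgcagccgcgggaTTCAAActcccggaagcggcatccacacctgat
HMMR: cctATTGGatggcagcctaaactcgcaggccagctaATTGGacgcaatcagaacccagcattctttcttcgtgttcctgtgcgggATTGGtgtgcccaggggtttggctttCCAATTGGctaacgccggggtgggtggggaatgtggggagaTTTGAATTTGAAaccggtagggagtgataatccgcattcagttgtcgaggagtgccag
CCNB2: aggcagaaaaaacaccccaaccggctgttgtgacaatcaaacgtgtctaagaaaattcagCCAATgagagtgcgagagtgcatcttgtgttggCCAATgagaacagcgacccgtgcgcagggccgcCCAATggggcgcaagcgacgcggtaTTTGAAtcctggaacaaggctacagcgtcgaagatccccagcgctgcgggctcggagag
In CCNB2 the CHR word begins 29 bases before the start, and CCAAT words begin 120, 87 and 54 bases before it. In HMMR a pair of CHR words stands side by side, 28 and 22 bases before the start.

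The genes of S phase were lower on average too, but the rule held fewer of them. Of 43 helicase, origin and polymerase genes, 22 fell, 0 rose, 14 had 6 negative differences (5.96% of all genes) and the median was -0.39 (-0.16 in 22RV1 and -0.58 in LnCaP). DBF4, the activating subunit of the kinase CDC7, fell by 0.47 (adjusted p = 0.00874) with groups apart in both lines, and CDC7 itself by 0.39 (adjusted p = 0.0166). ORC1, the largest subunit of the origin recognition complex, was at 6.84, 6.87 and 7.29 and then at 6.69, 6.75 and 6.66 in 22RV1, a small drop in pairs 1 and 2 and a larger one in pair 3. In LnCaP it went from 6.63, 5.97 and 6.81 to 5.29, 5.18 and 6.18, with overlap, and it fell by 0.61 ± 0.10 on average (adjusted p = 0.0191). TOP2A, the topoisomerase that untangles replicated DNA, fell by 0.32 (adjusted p = 0.0255).

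CDC6, which loads the replicative helicase and was chosen after its values were seen, was outside the rule. It was at 8.92, 8.90 and 9.12 in untreated 22RV1 arrays and at 8.95, 9.04 and 8.56 in treated ones, so pairs 1 and 2 were slightly higher with nicotine and pair 3 lower. In LnCaP it went from 8.64, 7.67 and 8.53 to 7.09, 6.66 and 7.77, and its average of -0.62 was called (adjusted p = 0.0307). The helicase genes MCM5 (-0.56), MCM10 (-0.71) and CDC45 (-0.61), chosen in the same way, had a 22RV1 difference above 0 in pair 2, of 0.076, 0.15 and 0.10.

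Of 9 genes of deoxynucleotide supply, 4 fell, 0 rose and 2 had 6 negative differences: the thymidylate synthase gene TYMS (-0.44) and the thymidylate kinase gene DTYMK (-0.41). TK1, a thymidine kinase, also fell (-0.53) but was at 0.032 in 22RV1 pair 2. Of 20 genes of homologous recombination and replication stress, 7 fell, 0 rose and 3 had 6 negative differences, among them FANCI (-0.45), a gene of the Fanconi anaemia pathway of crosslink repair. CHEK2 (-0.43) fell with a difference of 0.076 in 22RV1 pair 2.

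Over the 72 genes of these S phase lists, 33 fell, 19 had 6 negative differences and 15 had both (2.03%, 5.96% and 1.34% of all genes). Their medians in 22RV1 were -0.047, 0.018 and -0.39 for pairs 1, 2 and 3, and in LnCaP -0.70, -0.48 and -0.41. In 22RV1 pairs 1, 2 and 3, 27, 40 and 3 of the 72 differences were positive, against 5, 17 and 4 of the 69 mitotic genes. Without the arrays numbered 3, 20 of the 72 had 4 negative differences, against 9.79% of all genes. In 22RV1 the S phase median thus lay close to 0 in pairs 1 and 2 and was lower in pair 3, while the median of the mitotic genes was negative in each pair. The difference between the lists was not tested. Either of the E2F words TTTCCCGC and TTTGGCGC was in 29.2% of the promoters of S phase list genes, 6.82% of called falls and 10.7% of genes called lower outside the rule. It was in 3.33% of the genes measured and 2.31% of the table, and the CHR word was in 4 of the 65 S phase promoters (6.15%). The CDC6 promoter at chr17:40287699-40287908 on the plus strand is shown beside those of the mitotic genes, with the E2F and CCAAT words in capitals. Its only E2F word begins after the start, at position 8. CDC6 was chosen after its values were seen, and most promoters of S phase list genes held neither E2F word.
CDC6: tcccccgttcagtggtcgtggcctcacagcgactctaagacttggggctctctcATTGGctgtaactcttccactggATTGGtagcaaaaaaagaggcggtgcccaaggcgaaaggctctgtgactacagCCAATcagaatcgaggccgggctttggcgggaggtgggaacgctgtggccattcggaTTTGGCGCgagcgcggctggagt

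**Figure D4:**
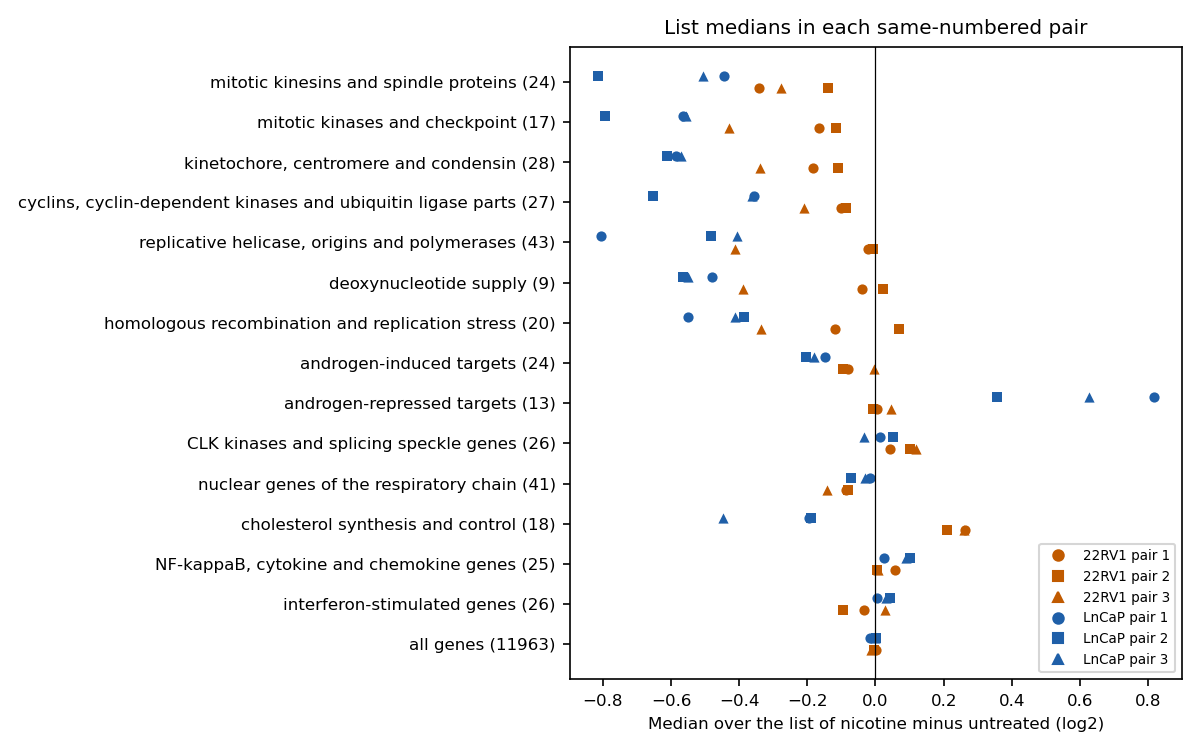
Each mark is the median over a gene list (vertical, number of genes in brackets) of the log2 difference in a same-numbered pair, in orange for 22RV1 and blue for LnCaP. The mitotic lists lie left of 0 in all 6 pairs, the replication list lies near 0 in 22RV1 pairs 1 and 2, and cholesterol synthesis lies right of 0 in 22RV1 and left of it in LnCaP.

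Transcription factors of the cell cycle were called less evenly. Of 16 genes, 3 fell and 0 rose (2.03% and 1.28% of all genes), 1 had 6 negative differences (5.96%), and the median was -0.063. E2F8, a repressor of E2F targets, fell by 0.69 ± 0.14 (adjusted p = 0.0362), with 22RV1 differences of -0.016, -0.024 and -1.02 and LnCaP differences of -1.37, -1.05 and -0.64. FOXM1 (-0.39) and MYBL2 (-0.35), activators of G2 and M phase genes, fell on average with 22RV1 effects of -0.12 and 0.010. CDKN1A, the p21 gene, was at -0.035 (adjusted p = 0.808; chosen after its values were seen).

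Androgen receptor targets were called in both directions. Of 13 androgen-repressed targets 6 rose and 0 fell (1.28% and 2.03% of all genes). By sign, 4 had 6 positive differences (4.82% of all genes), and the median was 0.38 (0.071 in 22RV1 and 0.59 in LnCaP). The list medians of 22RV1 pairs 1, 2 and 3 were 0.0048, -0.0061 and 0.046, so the rise of the list lay mostly in LnCaP. SI, the sucrase-isomaltase gene, was at 3.14, 3.02 and 4.14 in untreated and 3.40, 3.49 and 5.43 in treated 22RV1 arrays, where array 3 stood above the others of its group and the groups overlapped. In LnCaP it went from 4.61, 4.48 and 4.31 to 6.05, 5.97 and 4.87 without overlap, and it rose by 0.92 ± 0.15 (adjusted p = 0.0198). UGT2B17, an enzyme that glucuronidates androgens, was at 3.57, 3.79 and 3.74 and then at 3.84, 4.07 and 4.37 in 22RV1, a low level, and at 9.58, 10.40 and 8.34 and then at 10.21, 10.76 and 9.14 in LnCaP, where the groups overlapped. It rose by 0.49 ± 0.07 (adjusted p = 0.0145). OPRK1, the kappa opioid receptor gene, rose by 0.59 (adjusted p = 0.0108), of which 22RV1 had 0.13 and LnCaP 1.06. In 22RV1 it was read at a low level, 4.51 to 4.86. BCHE, which encodes butyrylcholinesterase, a hydrolase of choline esters, rose by 0.63 (adjusted p = 0.0233), with a smallest difference of 0.0048 in 22RV1 pair 1. It was at 4.73 to 6.41 in 22RV1. SI, UGT2B17, OPRK1 and BCHE all lay below the array medians (6.61 to 6.71) on every 22RV1 array. No detection calls were used, so their signs in 22RV1 are uncertain. The other called rises of this list, PLA2G2A (0.88) and DDC (0.38), were outside the rule.

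Of 24 androgen-induced targets, 5 fell and 1 rose (2.03% and 1.28% of all genes). By sign, 4 had 6 negative differences (5.96% of all genes), and the median was -0.11 (-0.076 and -0.18). KLK2, a kallikrein protease of the prostate, was at 9.87, 9.65 and 8.70 in untreated and 9.28, 9.20 and 7.94 in treated 22RV1 arrays, with both arrays numbered 3 low. The 22RV1 groups overlapped, whereas in LnCaP KLK2 went from 10.74, 10.70 and 10.03 to 9.79, 9.67 and 9.70 without overlap. KLK2 fell by 0.69 ± 0.09 (adjusted p = 0.0129), and its 2 other probe sets averaged -0.65 with 6 negative differences and -0.23 with 5. KLK3, the gene of prostate-specific antigen, fell by 0.31 (adjusted p = 0.0430; chosen after its values were seen), with a difference of 0.020 in LnCaP pair 3. KLK2 and KLK3 are close copies, and whether their probe sets share signal was not tested. CENPN, listed here as well as at the kinetochore, fell, and GNMT, a glycine methyltransferase, fell by 0.62 with a difference of 0.11 in 22RV1 pair 2. ACP3, the gene of prostatic acid phosphatase, went the other way. It was at 6.40, 5.97 and 6.16 and then at 6.52, 6.36 and 6.91 in 22RV1 and at 9.48, 10.13 and 10.83 and then at 10.66, 11.12 and 11.85 in LnCaP, with overlap in both lines, and it rose by 0.74 ± 0.08 (adjusted p = 0.00870).

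CLK1 and CLK4, which encode kinases that phosphorylate splicing factors of nuclear speckles, rose, while CLK2 (0.10, adjusted p = 0.534) and CLK3 (0.12, adjusted p = 0.204) were not called. CLK1 was at 8.09, 8.07 and 8.11 and then at 8.41, 8.60 and 8.54 in 22RV1, and at 7.12, 6.85 and 7.22 and then at 7.39, 7.45 and 7.64 in LnCaP. Treated arrays were above untreated ones in both lines, and CLK1 rose by 0.43 ± 0.06 (adjusted p = 0.0129), with an effect of 0.42 in 22RV1 and 0.43 in LnCaP. CLK4 was higher by 0.34 (adjusted p = 0.0341) with groups apart in both lines, and RSRP1, a protein rich in arginine and serine, by 0.39 (0.61 in 22RV1 and 0.17 in LnCaP). Of 26 genes of this list 3 rose, 0 fell and 8 had 6 positive differences, and the median was 0.090 (-0.035 in LnCaP pair 3). Over all genes, 1.28% were called higher and 4.82% had 6 positive differences. RBM5, a splicing regulator, was at 0.22 (adjusted p = 0.0602). Among genes chosen after their values were seen, the paraspeckle gene PSPC1 rose by 0.33 and the methyladenosine reader gene YTHDC1 by 0.22, whereas the spliceosome genes SNRPA (-0.30), SNRPB (-0.26), SNRPA1 (-0.26) and MAGOHB (-0.38) fell.

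Further rises were of signalling and membrane genes. SHC2, an adaptor of receptor tyrosine kinases, rose by 0.42 (adjusted p = 0.0154) with groups apart in both lines, GRB10, an inhibitor of the insulin receptor, by 0.60 (adjusted p = 0.0127) and the transcription factor gene FOXO3 by 0.29 (adjusted p = 0.0383). Of 24 genes of insulin and IGF signalling these 3 rose and 0 fell (1.28% and 2.03% of all genes). By sign, 5 had 6 positive differences (4.82% of all genes), and the median was 0.078. IRS1, an adaptor of the insulin receptor, was at 0.48 (adjusted p = 0.0502). CERK, the ceramide kinase gene, was at 5.98, 6.05 and 5.46 and then at 6.32, 6.43 and 6.24 in 22RV1, and at 6.97, 6.78 and 5.86 and then at 7.31, 7.45 and 6.71 in LnCaP. The groups were apart in 22RV1 and overlapped in LnCaP, where both arrays numbered 3 were low, and CERK rose by 0.56 ± 0.08 (adjusted p = 0.0135). PLEKHB1 rose by 0.58 and the ataxin gene ATXN1 by 0.50, each with groups apart in both lines. The other probe set of ATXN1 averaged 0.49 with 6 positive differences. RLN2, the gene of the hormone relaxin, rose by 0.68 (adjusted p = 0.0138) with overlapping groups.

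Tubulin genes were called in both directions. TUBA1A, the alpha-tubulin of developing neurons, was at 11.72, 11.62 and 11.85 and then at 11.88, 11.67 and 11.90 in 22RV1, an effect of 0.09. In LnCaP it went from 8.35, 8.07 and 7.03 to 9.25, 8.94 and 9.30 without overlap, and its average of 0.72 ± 0.16 was called (adjusted p = 0.0488). Of 15 tubulins 2 rose, TUBA1A and TUBB6 (0.31), and 2 fell, TUBA1B (-0.23) and TUBG1 (-0.29). Of all genes, 1.28% were called higher and 2.03% lower. TUBB6, TUBA1B and TUBG1 had 22RV1 differences of both signs, and the list median was -0.13. Chosen after their values were seen, the microtubule-associated protein gene MAP1B rose by 0.63 (adjusted p = 0.00870), the transport kinesin genes KIF5C by 0.47 and KIF3C by 0.32, the dynamin gene DNM1 by 0.36 and the NAD synthesis gene NMNAT2 by 0.40. The semaphorin receptor genes NRP1 (0.46), PLXNA1 (0.26) and PLXNA3 (0.38) and the axon guidance gene SLIT1 (0.29) rose as well. NRP1 in 22RV1, and DNM1 and SLIT1 in LnCaP, lay below the array medians (6.61 to 6.71) on every array, so their signs there are uncertain.

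Of 18 p53 targets and death receptors 2 rose and 0 fell (1.28% and 2.03% of all genes), and the median was 0.027. TNFRSF10D, a decoy receptor of the death ligand TRAIL, rose by 0.45 (adjusted p = 0.0150) with groups apart in both lines, and the sestrin gene SESN1 by 0.35 (adjusted p = 0.0216). The median over 28 genes of the unfolded protein and integrated stress responses was 0.031. Of these 1 rose (1.28% of all genes), DDIT3 (0.34, adjusted p = 0.0437). ATF4, its upstream activator, was at 0.17 (adjusted p = 0.120) with 6 positive differences.

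The remaining called falls were mixed. KLHL7, an adaptor of a ubiquitin ligase, was at 6.71, 6.52 and 7.54 and then at 5.92, 6.23 and 6.44 in 22RV1, without overlap. In LnCaP it was at 6.59, 6.82 and 8.12 and then at 6.12, 6.08 and 7.01, with the untreated array numbered 3 high, and it fell by 0.75 ± 0.11 (adjusted p = 0.0135). Its other probe set averaged -0.22 with 5 negative differences. The protocadherin gene PCDH7 fell by 0.69, of which 22RV1 had -1.23 and LnCaP -0.15, and its 3 other probe sets were of mixed sign. The metallothionein gene MT1H fell by 0.70 (adjusted p = 0.0450) with its largest difference in 22RV1 pair 3, and metallothionein probes may share signal. REXO5, an exonuclease gene, fell by 0.46 with groups apart in both lines. Among genes chosen after their values were seen, MKI67, which encodes the Ki-67 protein of dividing cells, fell by 0.39, the nucleotide enzyme genes PNP by 0.34 and UMPS by 0.25, and the phosphatase gene DUSP4 by 0.47.

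**Figure D5:**
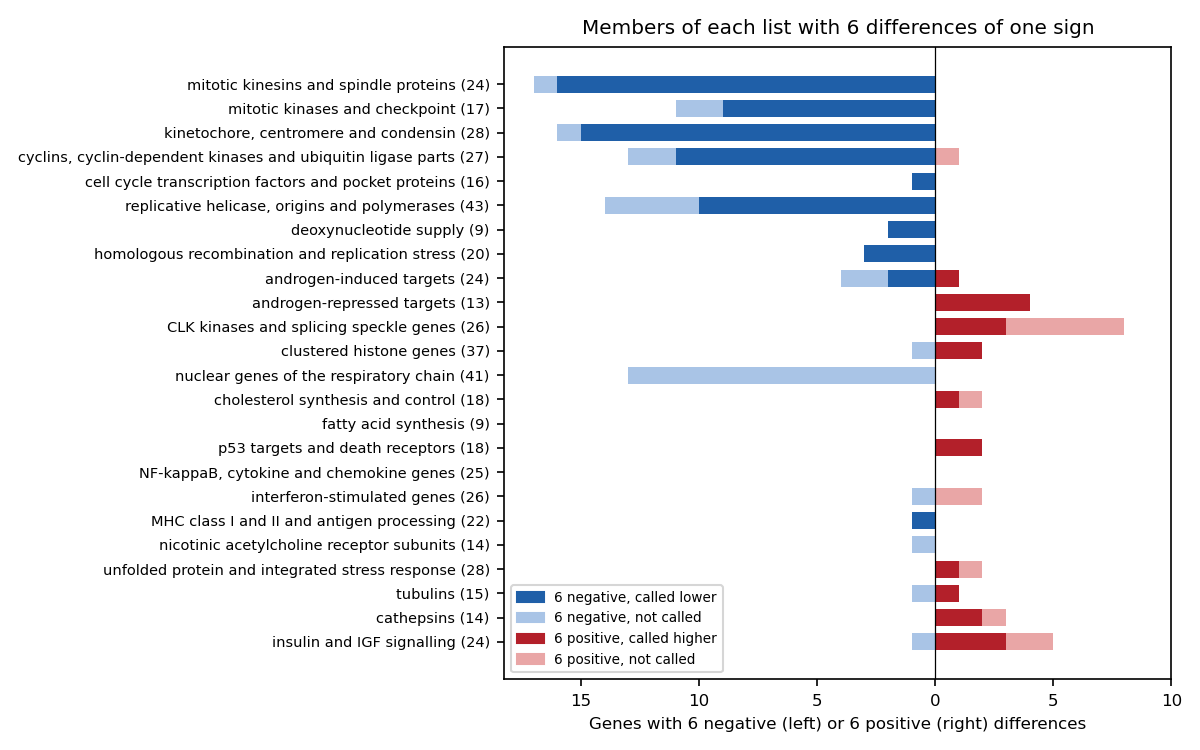
Bars give, for each gene list with its number of measured genes in brackets, how many genes had 6 negative differences (left, blue) or 6 positive ones (right, red), in the darker shade where the average was also called. The 3 mitotic lists hold 17, 11 and 16 genes on the left and 0 on the right, the respiratory chain holds 13 on the left with 0 called, and the NF-kappaB list holds none.

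Several lists had few or no shared changes that passed the test. Of 14 nicotinic receptor subunits, 0 were called by limma and the median was -0.048, and CHRNA2 alone had 6 differences of the same sign, with an average of -0.13 (adjusted p = 0.283). CHRNA5 was at -0.17 (adjusted p = 0.179). Of 25 NF-kappaB, cytokine and chemokine genes 0 were called and 0 had 6 differences of the same sign, and the smallest adjusted p was that of IL11 (0.12, adjusted p = 0.245). Of 26 interferon-stimulated genes 0 were called, ISG20 and XAF1 had 6 positive and ISG15 had 6 negative differences, and OAS3 was at -0.28 (adjusted p = 0.0776). Of 22 genes of MHC and antigen processing, 1 fell and 1 rose (2.03% and 1.28% of all genes). PSMB9, an immunoproteasome subunit, fell by 0.35 (adjusted p = 0.0417) with 6 negative differences and groups apart in both lines. HLA-E rose by 0.21 (adjusted p = 0.0488), all of it in LnCaP (0.43).

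Of 41 nuclear genes of the respiratory chain, 13 had 6 negative differences and 0 had 6 positive ones (5.96% and 4.82% of all genes), 0 were called and the median was -0.071. In LnCaP pairs 1 and 3, 18 and 15 of the 41 differences were positive. CYC1, a subunit of complex III, was at -0.20 (adjusted p = 0.0502) and the complex I gene NDUFA7 at -0.19 (adjusted p = 0.0692). Sterol genes went opposite ways in the lines. The cholesterol list of 18 genes had a median of 0.26 in 22RV1 and of -0.29 in LnCaP, 17 or 18 of its differences were positive in each 22RV1 pair and 2 to 5 in each LnCaP pair, and 2 genes had 6 positive differences, the sterol reductase gene TM7SF2, which rose (0.25, adjusted p = 0.0322), and the sterol desaturase gene SC5D, which was not called (0.12, adjusted p = 0.223). Of 9 fatty acid synthesis genes 0 were called and 0 had 6 differences of the same sign.

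The rule has a threshold at 0. Just inside it were PDCD10, FBXO28 and POLA2, whose smallest differences round to 0.00, and just outside it PCNA, SMARCD3 and SLC5A6. PCNA, the sliding clamp of DNA polymerases, had an average of -0.40 and differences of 0.00 to -0.81, and POLA2, a polymerase alpha subunit, one of -0.39. Of the 114 called genes outside the rule, 31 were higher and 83 lower, 90 had a single opposite difference, and 108 had an opposite difference in 22RV1 against 5 in LnCaP. Of the 163 other probe sets of called members, 149 averaged in the direction of their gene (91.4%), 69 had 6 differences of that sign (42.3%) and 0 had 6 of the opposite sign. For genes outside the rule 66.4% of the other probe sets averaged in the same direction and 4.51% had 6 such differences. Probe sets of a gene share the arrays, so this compares measurements and not samples. The largest of the 6 differences was in a number 3 pair for 631 members (48.9%), against 42.2% of all genes.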

How the data were processed

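Per the labels' protocols, TRIzol RNA was made into biotin-labelled cRNA and hybridised to Affymetrix arrays. Values deposited by the authors are on a log2 scale and cover 22277 probe sets and 12 arrays; their normalization is not given in the sources used here, and the log base is inferred from the values, whose array medians ran from 6.61 to 6.71. The values were used as deposited, unfiltered. Platform annotation gave 19070 probe sets with 1 gene symbol, 1043 with several and 2164 unlisted, and the highest-mean probe set of each symbol left 11963 genes.

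The model was limma's (3.58.1, R 4.3.3; lmFit and eBayes), with 6 blocks of same-numbered arrays and a nicotine effect per line (4 residual degrees of freedom). Tests were two-sided and adjusted over all genes by Benjamini-Hochberg. Within a line, deviations from the group mean were correlated between the untreated and the treated array with the same number. The values were 0.465, 0.454 and 0.640 in 22RV1 and 0.371, 0.225 and 0.599 in LnCaP. All were above 0.1, and the numbers, which come from the labels, were taken to pair arrays. That cut cannot decide the pairing of arrays 1 and 2, because some arrays with different numbers passed it too. In 22RV1, untreated array 1 correlated at 0.204 with treated array 2, and untreated array 2 at 0.270 with treated array 1. LnCaP untreated array 2 correlated more with treated array 1 (0.270) than with treated array 2, whereas untreated array 1 and treated array 2 were at 0.046. For these arrays the block thus rests on the labels.

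Named genes were the 12 called rises and 12 called falls with the largest smallest difference, the 5 largest averages each way, up to 4 genes of each list by p-value, and 3 genes on each side of the sign threshold. Genes outside these were chosen after their values were seen, whether or not the text says so beside them. The members and lists were chosen with earlier results of these data known, and 555 of 641 listed symbols were measured. The fit was tested on simulated data. Alternatives covered the block, array weights, scaling, filters, probe set choice, crossed numbers and leaving out arrays.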

Additional observations from a re-analysis of the deposited data

Results flagged for a closer look

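For 5 genes whose average was called, the effects of the lines differed in limma's test of the difference (LnCaP minus 22RV1, with the replicate block). All are outside the rule, and the lines had effects of opposite sign or an effect near 0 in 22RV1. PLA2G2A, a secreted phospholipase gene, differed by 1.62 ± 0.16 (SE, adjusted p = 0.0333), with 0.07 in 22RV1 and 1.69 in LnCaP. DDC, which encodes dopa decarboxylase, differed by 1.26 ± 0.14 (adjusted p = 0.0333), with -0.25 and 1.01. EBP, a sterol isomerase gene, differed by -0.85 ± 0.11 (adjusted p = 0.0426), with 0.17 and -0.68. CAPN15, a calpain gene, differed by -0.87 ± 0.11 (adjusted p = 0.0426), with 0.18 and -0.69. AZGP1, a secreted zinc-binding glycoprotein gene of the prostate, differed by -0.76 ± 0.10 (adjusted p = 0.0426), with 0.06 and -0.71. The average of these genes therefore does not describe both lines. These calls were lost without the replicate block, where 0 differences were called.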

How the results depend on the processing

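The average was called for 396 genes, for 462 with array weights, 384 after centring on the array median, 388 after quantile normalization, 448 over all probe sets and 355 with the most variable probe set of each gene. It was called for 45 genes without the replicate block, 44 with an effect common to both lines, 907 with a trended robust prior, 846 among genes above the median level and 16 at an adjusted p under 0.01. Leaving out a same-numbered pair gave 46 to 186 calls, with 46, 185 and 51 without 22RV1 pairs 1, 2 and 3 and 186, 177 and 123 without LnCaP pairs 1, 2 and 3, and leaving out the arrays numbered 3 gave 0. The difference between lines was called for 19 genes, 39 with array weights, 30 centred, 32 quantile normalized, 160 with the trended prior, 78 above the median level, 0 without the block or the arrays numbered 3, and 0 to 3 when a pair was left out. Genes with differences of the same sign numbered 1290, 1098 to 1216 with numbers 1 and 2 crossed in either or both lines, 217 with each difference at least 0.1 and 43 at least 0.2. They numbered 2216 with 4 pairs, without the arrays numbered 3, and 2085 over all probe sets. Fewer pairs are a weaker demand and more probe sets a larger table; the cause of the other shifts was not tested.

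None of the 118 named genes reversed its sign without the replicate block, with array weights, centring, quantile normalization or the trended prior, or with arrays left out, nor did the 87 of them above the median level. Named genes were not compared under the other settings. Of the 118 named genes, 80 were called and 38 were not. Without the replicate block 56 of the 80 lost their call, and without the arrays numbered 3 all 80 did. With 3 pairs a line, small effects cannot be told from the spread, and the median SE of an average was 0.060.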

Other observations

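Further called members outside the lists, from different pathways and all chosen after their values were seen, are given singly. The signalling genes SMAD3 (0.34), which carries the TGF-beta signal, TCF7L2 (0.34), a partner of beta-catenin, and VEGFA (0.32), the vascular growth factor gene, rose, and PRKCD, a protein kinase C gene, fell by 0.30. The mitochondrial import chaperone genes TIMM10 (-0.29) and TIMM8A (-0.28) fell. PIMREG, a mitotic regulator in none of the lists, fell by 0.56 ± 0.06 (SE, adjusted p = 0.00870), with groups apart in both lines. LARP6, an RNA-binding protein gene, rose by 0.55 (adjusted p = 0.00870), also with groups apart in both lines. On every 22RV1 array LARP6 lay below the array medians (6.61 to 6.71), so its sign there is uncertain. GINS4, a helicase subunit, fell by 0.68 (adjusted p = 0.0129).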
